A study of Homo sapiens with 6 samples.

Results

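Interferon-stimulated genes were examined in HSC-3, an established line of human tongue squamous carcinoma cells. The list held 47 genes, chosen by name, of which 46 had a probe set naming that gene alone, among 19775 genes so represented on the array. STAT2 was the remaining member and was not analysed here. Where a gene had several probe sets, the one of highest mean signal over all arrays stood for it. Signals came from 6 Affymetrix arrays. On 3 of them the labels place RNA of HSC-3 cells overexpressing trypsin-2 (TAT-2 in the titles), a secreted serine protease encoded by PRSS2. The other 3 carried RNA of HSC-3 cells with a control vector, which according to the labels made no trypsin-2. All cells had been cultured for 48 h in the same serum-containing medium with hydrocortisone and were detached with trypsin before RNA extraction. No interferon, virus or other inducer is named in the labels, and neither is whether each line was 1 clone. The series asked how trypsin-2 alters gene expression in these cells. The labels do not say whether the 3 replicates in each group came from separate cultures, and the p-values below therefore reflect the spread between arrays alone, part or all of which may be technical.

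Many interferons are secreted when a cell senses foreign nucleic acid. Type I and type III interferons signal through JAK1 and TYK2 to a complex that contains STAT2 and IRF9 and binds the interferon-stimulated response element of target genes. Type II interferon acts at gamma-activated sites. The induced proteins bind or degrade viral RNA, block virus entry and release, present antigen and feed back on the pathway. Epithelial cells and many carcinoma lines express part of this set without added interferon.

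The labels could not be checked by the introduced gene. The brightest PRSS2 probe set gave signals of 20.4, 13.8 and 14.6 on replicates 1, 2 and 3 labelled overexpressing and of 19.6, 80.8 and 83.2 on those labelled vector, so it went against the labels at numbers 2 and 3 and was level at number 1. Another PRSS2 probe set gave 19.9, 17.9 and 19.5 against 22.6, 38.0 and 54.5. It went against the labels at every number, and its groups did not overlap. A probe set shared with PRSS1 was near the floor, at 2.20, 2.26 and 3.56 against 0.997, 0.816 and 1.41, in the direction of the labels. The labels do not say whether any PRSS2 probe set reads the introduced sequence, and every direction below rests on the labels. A first principal component with 45.6% of the variance parted the replicate 1 array of each group from the other 4 arrays. Their log2 ratio of 3' to 5' ACTB signal was 0.21 and 0.25, against 0.46 to 0.59 on the others, and a 28S ribosomal RNA probe set read 529.5 and 682.5 against 2030.3 to 2537. Of 8 epithelial markers 5 had a probe set naming that gene alone, and KRT6A, KRT17 and TP63 had none. All 5 (KRT5, KRT14, SFN, EPCAM and CDH1) lay above the filter on low signals. Their summed signals were 21361 to 23243 on overexpressing and 19226 to 25897 on vector arrays. EPCAM fell by 0.45 and CDH1 by 0.44 with the replicate block described below (adjusted p = 0.0115 and 0.00566), while neither passed without it (0.541 and 0.41) and EPCAM did not pass with the block and no filter (0.0741). KRT5, KRT14 and SFN differed by 0.31, 0.22 and -0.02 and did not pass.

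The promoters of the members that rose most are shown because the interferon-stimulated response element is the sequence through which classical members are induced. Each stretch is the 150 bases before the RefSeq transcription start on GRCh38.p14, read 5′ to 3′ along the gene. Capitals mark matches to the response element, searched on both strands as GAAA, any 2 bases and GAAA again, which on the opposite strand reads TTTC, any 2 bases and TTTC. IFI44L lies at chr1:78620298-78620447 on the plus strand, IFIT1 at chr10:89392473-89392622 (plus), IFI44 at chr1:78649639-78649788 (plus) and IFI27 at chr14:94110586-94110735 (plus). For IFI44 and IFI27 the table holds 2 promoters each, and the 1 shown is the first.
IFI44L: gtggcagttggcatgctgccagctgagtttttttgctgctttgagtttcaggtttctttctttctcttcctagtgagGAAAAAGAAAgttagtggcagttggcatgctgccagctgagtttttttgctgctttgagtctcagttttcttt
IFIT1: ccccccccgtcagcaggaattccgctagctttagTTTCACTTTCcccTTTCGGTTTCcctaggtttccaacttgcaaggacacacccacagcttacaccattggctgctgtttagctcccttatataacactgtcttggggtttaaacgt
IFI44: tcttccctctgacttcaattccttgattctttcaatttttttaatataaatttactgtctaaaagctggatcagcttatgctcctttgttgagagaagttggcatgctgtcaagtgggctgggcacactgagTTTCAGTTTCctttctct
IFI27: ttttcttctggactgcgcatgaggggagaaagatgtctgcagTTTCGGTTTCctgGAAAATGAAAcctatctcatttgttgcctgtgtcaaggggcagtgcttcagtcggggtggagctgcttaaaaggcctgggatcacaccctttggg

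IFIT1 and IFI27 each carried a pair of elements 3 bases apart, whereas IFI44L and IFI44 carried 1 each in the stretch shown. The elements began 116 and 103 bases before the start in IFIT1, 108 and 95 in IFI27, 73 in IFI44L and 18 in IFI44. A further match of IFI44L began 164 bases before the start, outside the stretch shown. RefSeq promoters of 300 bases, 250 before to 50 after the start, were found for 39 of the 47 members, and 27 of them (69.2%) held at least 1 match in any of their promoters, against 4.38% of 27305 genes with a promoter in the table. Of these 27, 25 had a match lying wholly before the start and 18 had one within 100 bases of it. The gamma-activated site TTCNNNGAA, which can overlap the response element, was matched in 12 members (30.8%), among them IRF1, IRF9, IFI35 and OAS1, against 9.38% of all genes. A match is a description of these letters and not a measured site.

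**Figure D1:**
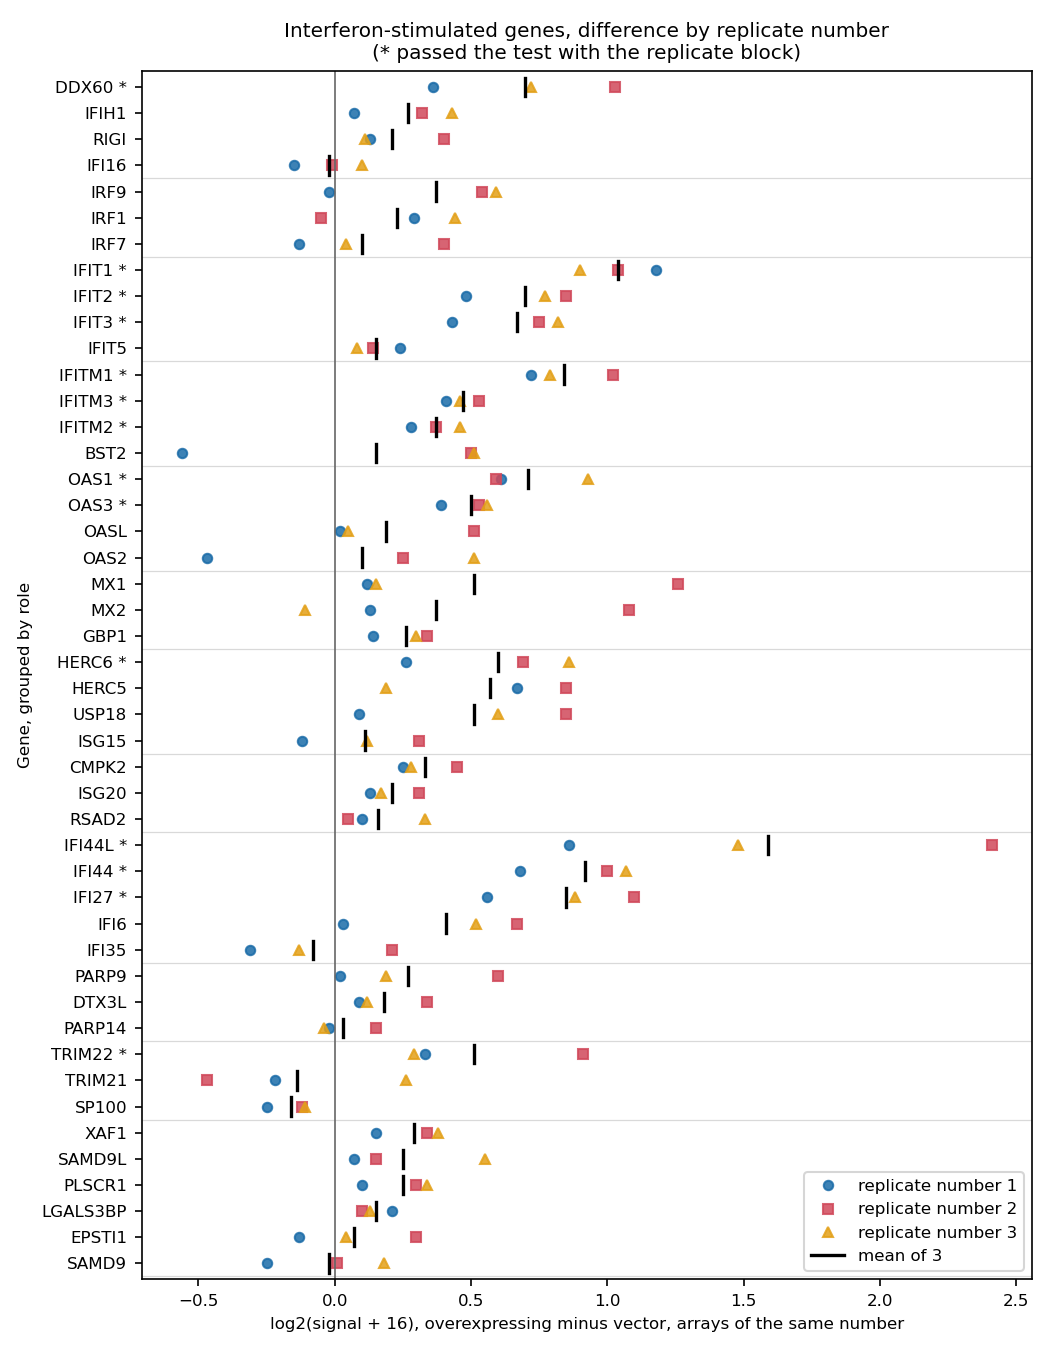
Difference of log2(signal + 16) between arrays labelled overexpressing and vector, for each of 46 interferon-stimulated genes, by replicate number (coloured points) with the mean of 3 (black bar); genes are grouped by role and a star marks those that passed the test with the replicate block. The differences lie mostly to the right of 0, from -0.16 for SP100 to 1.59 for IFI44L in the mean.

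Interferon-stimulated genes were mostly higher on the arrays labelled overexpressing, and the differences were modest. Over all 46 genes the median difference was 0.27 on the scale of log2(signal + 16), which is the scale of every difference here and understates change in dim genes, against 0.00 over all genes on the array. The difference was positive in 41 of the 46, against 49.6% of all genes, and positive at all 3 replicate numbers in 32 of the 46, against 17.9%. In 9 of the 46 (IFIT1, IFITM1, OAS3, USP18, HERC5, RSAD2, CMPK2, IFI44 and IFI44L) every overexpressing array lay above every vector array, against 6.65% of all genes, and in 0 every one lay below, against 6.76%. SP100 alone was lower at all 3 numbers, against 17.8% of all genes. The list was chosen with earlier results of these data known, so these counts describe it and test nothing.

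In limma across 12151 genes above the filter on low signals (a mean of 4.96 on the log2 scale, a signal of 15.2), with group as the only term, 0 of the 43 members tested passed at an adjusted p of 0.05 in either direction. Of all genes, 0.132% passed as higher and 0.198% as lower, and 11 of the members were higher at an unadjusted p under 0.05, against 4.75% of all genes. With the replicate number as a block, which compares arrays of the same number, 14 members rose, against 4.35% of all genes, and 0 fell, against 4.10%, with 25 of the 43 higher at an unadjusted p under 0.05, against 11.3%. The 14 were IFI44L, IFIT1, IFI44, IFI27, IFITM1, OAS1, IFIT2, DDX60, IFIT3, HERC6, TRIM22, OAS3, IFITM3 and IFITM2, and each was higher at all 3 numbers. The same 14 passed when p-values were adjusted over all probe sets, against 3.50% of all genes. BST2, RSAD2 and CMPK2 lay below the filter. IFI44L, HERC5 and XAF1 had vector means below it and passed it through their higher group. When the filter was dropped and all 46 were tested, 12 rose with the block, against 1.29% of all genes, and HERC6 (adjusted p = 0.108) and TRIM22 (adjusted p = 0.0979) did not pass.

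The calls rest on the block and on the variance estimate. Without the intensity trend of the variance 1 of the 14, IFIT1, passed with the block (0.148% of all genes as higher), and the others had adjusted p of 0.0678 to 0.205. Without the arrays numbered 2, the block fit called 9 of 41 members tested, against 2.41% of all genes: DDX60, HERC6, IFITM2 and TRIM22 did not pass, and IFI44L fell below the filter. Without those numbered 1 it called 16 of 43, against 2.73%, with IRF9 and PLSCR1 added to the 14. Without those numbered 3 it called 13 of 42, against 3.87%.

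**Figure D2:**
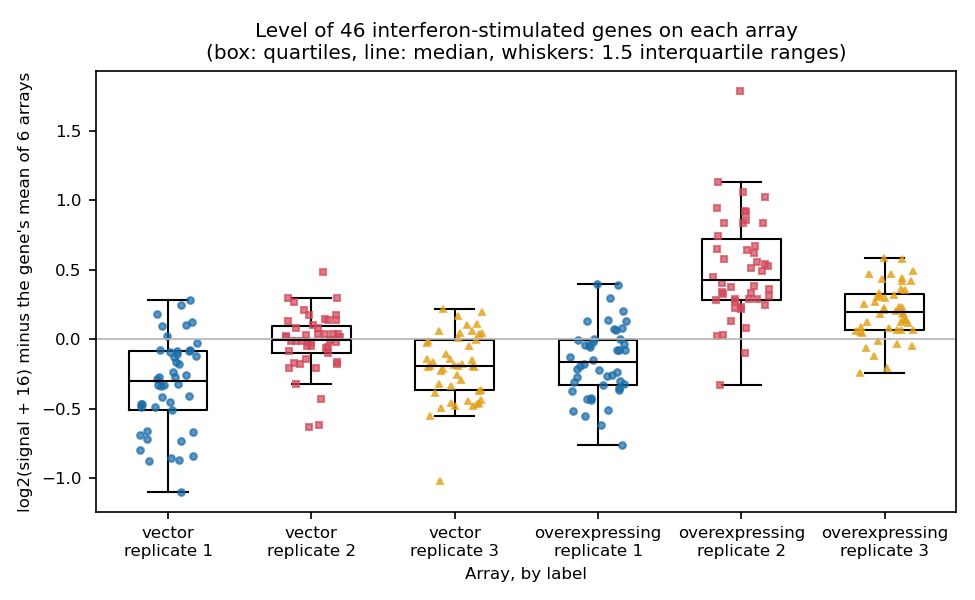
Level of 46 interferon-stimulated genes on each of the 6 arrays, as log2(signal + 16) minus the gene's own mean over the arrays (1 point per gene; box with quartiles and median). The median is 0.43 on overexpressing replicate 2 and -0.30 on vector replicate 1, with the arrays numbered 2 highest in both groups.

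The members also differed between replicates of 1 group. The array labelled overexpressing replicate 2 held the highest signal of 35 of the 46 genes, against 14.3% of all genes. Vector replicate 1 held the lowest of 22, for which the share of all genes was not computed. Relative to each gene's own mean, the median level was 0.43 on overexpressing replicate 2, 0.20 on replicate 3 and -0.16 on replicate 1, and -0.01, -0.19 and -0.30 on vector replicates 2, 3 and 1. In 17 of the 46, and in 10 of the 14 that rose with the block, the replicate 2 array was highest and the replicate 1 array lowest in both groups, against 4.72% of all genes. On replicate 1, 40 members lay below the mean of replicates 2 and 3 among overexpressing arrays and 31 among vector arrays, against 46.7% and 48.6% of all genes. These are the arrays with the lower ACTB ratio and the dimmer 28S signal, and the part of either in these levels was not tested.

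The difference between the groups varied by number as well. Its median over the 46 genes was 0.13 between the arrays numbered 1, 0.43 between those numbered 2 and 0.34 between those numbered 3, and the genes with a positive difference numbered 34, 42 and 42 against 50.4%, 53.5% and 46.3% of all genes. In 39 of the 46 the difference was larger at number 2 than at number 1, a count for which the share of all genes was not computed. Whether the difference depends on the number could not be tested with 1 array of each label per number. The median was 0.48 without overexpressing replicate 1 and 0.15 without overexpressing replicate 2. Without both arrays of number 2 it was 0.23, and 38 of the 46 genes had a positive difference.

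**Figure D3:**
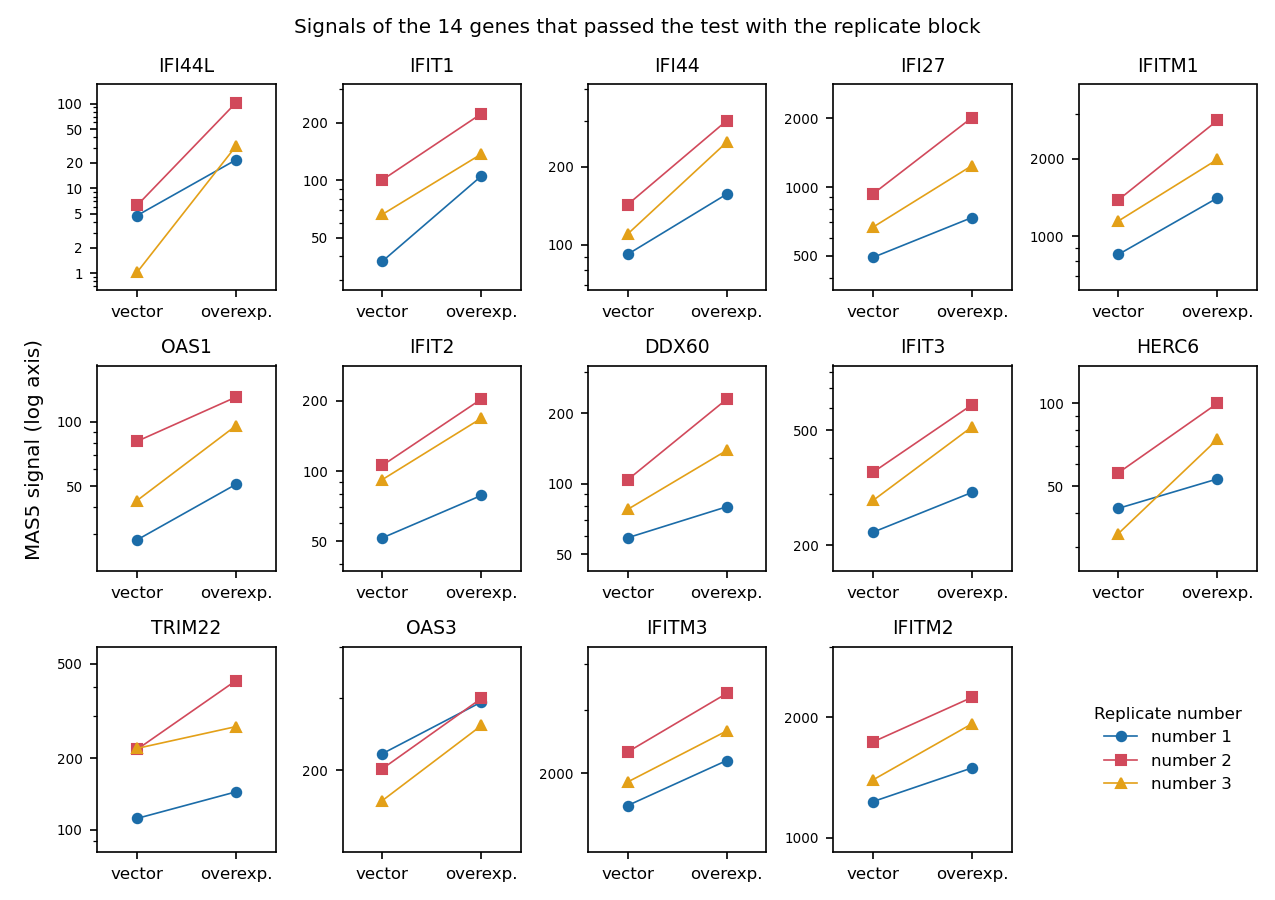
MAS5 signal (log axis) of the 14 genes that rose with the replicate block, on vector and overexpressing arrays, with lines joining arrays of the same number. Every line rises, and number 1 is the lowest in both groups for all but OAS3, HERC6 and IFI44L.

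Among sensors of foreign nucleic acid, DDX60, a helicase-like protein that works with RIG-I, rose with the block. Its signals were 79.7, 229 and 139 on overexpressing replicates 1, 2 and 3 and 58.8, 104 and 77.7 on vector replicates 1, 2 and 3. The overexpressing array numbered 1 lay within the vector range, so the groups overlapped, while each number taken alone was higher. The difference was 0.70 ± 0.13 (SE with the block, adjusted p = 0.00837; 0.561 without it). RIGI, formerly DDX58, which detects viral RNA with a 5′ triphosphate, gave 197, 269.6 and 198 against 179, 200.5 and 182, a difference of 0.21 (adjusted p = 0.204 with the block). IFIH1, which encodes MDA5, a sensor of long double-stranded RNA, gave 54.2, 109 and 111 against 51.0, 83.6 and 77.9, a difference of 0.27 (adjusted p = 0.234 with the block). For both genes the groups overlapped, and 1 of the other tested probe sets of each had the opposite sign. IFI16, a nuclear DNA sensor, gave 854, 1613 and 1618 against 949, 1619 and 1511, with a difference of -0.02. Its arrays parted by number and not by label, with replicate 1 low in both groups.

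None of the 3 interferon transcription factors analysed here passed either fit. IRF9, a DNA-binding part of the complex with STAT2, gave 127, 220.6 and 157 on overexpressing arrays and 129, 146 and 98.7 on vector arrays. It was higher at numbers 2 and 3 and level at number 1, with a difference of 0.37 ± 0.13 (SE with the block, adjusted p = 0.0991). IRF7, the factor that amplifies interferon production, gave 121, 130.0 and 130.1 against 135, 94.8 and 126, a difference of 0.10. IRF1, a factor induced by type II interferon, gave 214, 148 and 166 against 172, 153 and 118, a difference of 0.23 (adjusted p = 0.246 with the block). IRF1 was the member highest on replicate 1 in both groups among the 3.

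The IFIT genes encode proteins with tetratricopeptide repeats that bind viral RNA and limit its translation, and 3 of the 4 rose with the block. IFIT1 gave 105, 223 and 137 on overexpressing replicates 1, 2 and 3 and 37.7, 100.5 and 66.3 on vector replicates. Every overexpressing array exceeded every vector array, and the difference was 1.04 ± 0.11 (SE with the block; 0.32 without), or 2.05-fold, with an adjusted p of 0.000392 with the block and 0.323 without. It was similar at each number, at 1.18, 1.04 and 0.90. IFIT2, which also promotes cell death, gave 78.7, 203 and 168 against 51.8, 106 and 92.0, a difference of 0.70 ± 0.12 (adjusted p = 0.00401 with the block). Its dimmer tested probe set was at 0.19, and the mean of both at 0.45. IFIT3, a partner that stabilises IFIT1 on RNA, gave 305, 614 and 515 against 222, 358 and 286, a difference of 0.67 ± 0.09 (adjusted p = 0.00115 with the block). In IFIT2 and IFIT3 the groups overlapped only through overexpressing replicate 1. IFIT3's other tested probe set was at 0.57. IFIT5 differed by 0.15 (adjusted p = 0.328 with the block), and by 0.46 on its dimmer probe set. The 4 genes are neighbours on chromosome 10.

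All 3 IFITM genes, whose membrane proteins block the fusion of entering viruses, rose with the block. IFITM1 gave 1407, 2819 and 1988 on overexpressing arrays and 848, 1383 and 1144 on vector arrays. The groups did not overlap, and the difference was 0.84 ± 0.07 (SE with the block, adjusted p = 9.2e-05; 0.301 without it), or 1.79-fold. IFITM3 gave 2172, 3327 and 2621 against 1632, 2294 and 1895, a difference of 0.47 ± 0.06 (adjusted p = 0.00143 with the block). IFITM2 gave 1494, 2241 and 1926 against 1230.4, 1734 and 1394, a difference of 0.37 ± 0.07 (adjusted p = 0.0058 with the block). In IFITM2 and IFITM3 the overexpressing replicate 1 array lay below vector replicate 2. The 3 genes are neighbours on chromosome 11, and the probe sets of IFITM2 and IFITM3, whose names end in _x_at, can read related sequences, so the 3 may not count as separate members. The IFITM1 probe set ends in _s_at, which can also read several transcripts. BST2, or tetherin, which holds budding viruses at the cell surface, was at 1.82 to 12.8 over the 6 arrays and below the filter.

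Oligoadenylate synthetases make the messenger that activates RNase L, and 2 of the 4 rose with the block. OAS1 gave 51.1, 130.5 and 96.0 on overexpressing arrays and 28.1, 81.1 and 42.9 on vector arrays, a difference of 0.71 ± 0.14 (SE with the block, adjusted p = 0.0084). Its groups overlapped, since overexpressing replicate 1 was below vector replicate 2, and its other tested probe set had a difference of 0.86. OAS3 gave 294, 299.5 and 257 against 219.6, 202 and 169, without overlap and with little difference between numbers 1 and 2. Its difference was 0.50 ± 0.08 (adjusted p = 0.00426 with the block, 0.237 without), whereas its dimmer tested probe set was at -0.26 and the mean of both at 0.12. OAS2, their neighbour on chromosome 12, differed by 0.10, with -0.47 at number 1 and 0.51 at number 3, and by 0.56 and 0.20 on its dimmer tested probe sets. OASL, which has no synthetase activity, differed by 0.19 (adjusted p = 0.567 with the block).

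None of the 3 GTPases passed either fit. MX1, which traps viral nucleocapsids, gave 37.1, 93.7 and 52.0 on overexpressing arrays against 33.0, 29.7 and 45.1 on vector arrays. Only overexpressing replicate 2 stood well above the rest, and the differences by number were 0.12, 1.26 and 0.15. For MX2, its neighbour, which restricts HIV, they were 0.13, 1.08 and -0.11. GBP1, a guanylate-binding protein induced by type II interferon, differed by 0.26 (adjusted p = 0.184 with the block).

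In the system of ISG15, a ubiquitin-like protein, HERC6 alone rose with the block. HERC6, a HECT domain protein, gave 53.1, 100.0 and 74.0 on overexpressing arrays and 41.5, 55.9 and 33.6 on vector arrays, a difference of 0.60 ± 0.15 (SE with the block, adjusted p = 0.0337). It did not pass without the arrays numbered 2 (adjusted p = 0.183) or 3 (adjusted p = 0.0959). HERC5, the ligase that attaches ISG15, gave 26.6, 21.9 and 21.7 against 10.7, 5.07 and 17.1, without overlap, but did not pass (adjusted p = 0.119 with the block). USP18, which removes ISG15 and restrains the type I receptor, gave 35.8, 65.0 and 40.4 against 32.8, 28.9 and 21.1, again without overlap (0.51, adjusted p = 0.114 with the block). ISG15 itself gave a difference of 0.11, with -0.12 at number 1, 0.31 at number 2 and 0.12 at number 3.

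The nucleotide and RNA enzymes were dim. CMPK2, a mitochondrial nucleotide kinase, gave 9.72, 12.5 and 8.97 on overexpressing arrays and 5.60, 4.77 and 4.60 on vector arrays. RSAD2, or viperin, which makes a chain-terminating nucleotide, gave 7.31, 6.65 and 8.36 against 5.79, 5.93 and 3.36. Both genes, neighbours on chromosome 2, had groups that did not overlap, but all their signals lay under the filter, and with the filter dropped neither passed with the block (adjusted p = 0.372 and 0.677). ISG20, an exonuclease, differed by 0.21 (adjusted p = 0.44 with the block).

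Of IFI6, IFI27, IFI35, IFI44 and IFI44L, the genes IFI44L, IFI44 and IFI27 rose with the block. IFI44L, a feedback regulator of the response, gave 21.7, 103 and 31.6 on overexpressing arrays and 4.77, 6.28 and 1.02 on vector arrays. The groups did not overlap, and its difference was 1.59 ± 0.26, the largest of the list at this pseudocount (SE with the block). Adjusted p was 0.00423 with the block and 0.177 without it, in fits that it entered through its higher group. With the block and no filter, adjusted p was 0.0451. The difference was 0.86, 2.41 and 1.48 at numbers 1, 2 and 3. Because its vector signals lay below the filter, it depends on the pseudocount. With 64 in place of 16 the difference was 0.71, below IFITM1 (0.82), IFI27 (0.81), IFIT1 (0.72) and IFI44 (0.72). With 1 in place of 16, IFI44L fell below the filter and was not tested. IFI44, its neighbour on chromosome 1, gave 157, 302 and 249 against 91.9, 143 and 110.1, without overlap. The difference of IFI44 was 0.92 ± 0.10 (adjusted p = 0.000438 with the block, 0.219 without), and 0.38 on its dimmer tested probe set, which alone did not pass with the block when probe sets ending in _x_at and _s_at were left out (adjusted p = 0.268). IFI27, a mitochondrial protein and one of the most sensitive interferon markers, gave 735, 2014 and 1241 against 492, 933 and 667, a difference of 0.85 ± 0.09 (adjusted p = 0.000313 with the block). The IFI27 groups overlapped through overexpressing replicate 1. IFI6, a relative of IFI27, differed by 0.41 (adjusted p = 0.172 with the block), and IFI35 by -0.08.

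TRIM22, an antiviral ubiquitin ligase, rose with the block. It gave 144, 424 and 272 on overexpressing arrays and 112, 218 and 220.0 on vector arrays, a difference of 0.51 ± 0.12 (SE with the block, adjusted p = 0.0224). Its groups overlapped, and without the arrays numbered 2 it did not pass (0.31, adjusted p = 0.171). TRIM21, a cytosolic antibody receptor, differed by -0.14, and SP100, a nuclear body protein, by -0.16. PARP9 and its partner DTX3L, which share a stretch of chromosome 3 with PARP14, differed by 0.27 and 0.18, and PARP14 by 0.03. None of these 5 passed either fit.

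Of the other effectors 0 of 6 passed with the block or without it. PLSCR1, a phospholipid scramblase, came nearest, at 0.25 ± 0.07 (SE with the block, adjusted p = 0.0546). XAF1, a pro-apoptotic protein, differed by 0.29, SAMD9L by 0.25, LGALS3BP, a secreted galectin ligand, by 0.15, EPSTI1 by 0.07 and SAMD9, a neighbour of SAMD9L on chromosome 7, by -0.02. SAMD9 gave 57.1, 158 and 129.5 on overexpressing arrays and 70.7, 157 and 113 on vector arrays, again parting replicate 1 from the others. In all, 23 of the 47 members lie in 9 runs of near neighbours on the GRCh38.p14 gene order. Whether neighbours vary together was not tested, and members should not be counted as independent of each other.

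**Figure D4:**
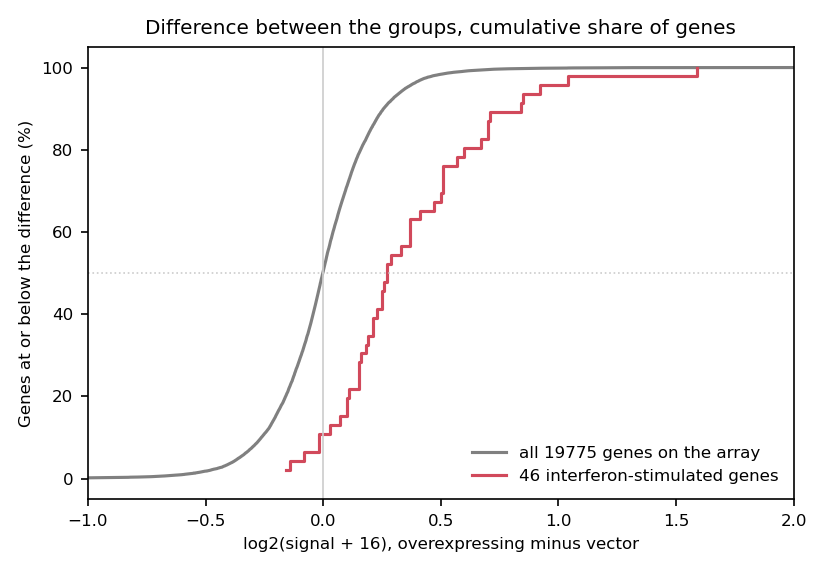
Cumulative share of genes (vertical axis, %) by the difference of log2(signal + 16) between overexpressing and vector arrays (horizontal axis), for the 46 interferon-stimulated genes and all 19775 genes on the array. The median of the listed genes is 0.27 and that of all genes is 0.00.

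Further probe sets of the members did not all have the same direction. Beside the brightest, 26 probe sets of 18 members passed the filter, of which 17 had the sign of the brightest and 9 the opposite. Of the 5 that belong to genes called with the block, 4 had the same sign (IFIT2, IFIT3, OAS1 and IFI44) and that of OAS3 did not. The opposite signs fell otherwise in EPSTI1, IFI16, IFIH1, RIGI, SAMD9 and SP100.

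Genes of the wider pathway passed with the block and not without it. Of 78 other interferon pathway genes 72 had a probe set and 61 were tested, of which 6 rose and 0 fell with the block, against 4.35% and 4.10% of all genes. Without the block 0 passed in limma. At an unadjusted p under 0.05 STING1, APOL1 and CXCL10 were higher, against 4.75% of all genes, and MAVS was lower (-0.31), against 4.65%. Of these, APOL1 had a vector mean below the filter and passed it through its higher group. With the block and no trend of the variance 0 passed. Their median difference was 0.05. Of 8 interferon genes with a probe set, 6 lay below the filter, among them IFNB1, with signals of 0.519 to 2.80, and IFNL1, with 8.0 to 12.9. IFNE, an interferon of epithelia, gave 32.8, 49.6 and 28.6 on overexpressing arrays and 22.6, 37.8 and 25.6 on vector arrays, a difference of 0.24 (adjusted p = 0.433 with the block). IFNL2, the other interferon gene tested, was at 13.3 to 20.3 over the arrays, a difference of -0.06 (adjusted p = 0.904 with the block).

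Receptors and kinases were above the filter on these arrays. IFNAR1 and IFNAR2, the chains of the type I receptor, differed by 0.14 and 0.03, IFNLR1 and IL10RB, those of the type III receptor, by 0.05 and 0.15, and IFNGR1 by 0.09. IFNGR2, a chain of the type II receptor, rose with the block by 0.26 ± 0.07 (SE, adjusted p = 0.045). Its signals of 745, 544 and 447 on overexpressing and 666, 435 and 358 on vector arrays overlapped. JAK1, JAK2, TYK2 and STAT3 differed by 0.08, 0.10, 0.14 and -0.04, and none passed.

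STING1, the adaptor of cytosolic DNA sensing, rose with the block by 0.64 ± 0.11 (SE, adjusted p = 0.00566), with 225, 186 and 167 on overexpressing arrays and 175, 101 and 88.6 on vector arrays. Unlike most members it was highest on replicate 1 in both groups. IRF2BP1, a corepressor of IRF2, gave 122, 52.3 and 29.6 against 64.5, 38.5 and 10.9 and rose with the block by 0.62 ± 0.16 (adjusted p = 0.0339). Of 28 further interferon-induced genes tested, 3 rose with the block, against 4.35% of all genes. TNFSF10, the death ligand TRAIL, gave 116, 369 and 259 against 79.5, 199 and 159, a difference of 0.65 ± 0.10 (adjusted p = 0.0026). SAMHD1, which depletes nucleotides needed by viruses, gave 225, 463 and 369 against 149, 358 and 308, a difference of 0.38 ± 0.08 (adjusted p = 0.0166). Like most members called with the block, both were highest on replicate 2 and lowest on replicate 1 in either group. CXCL10, a chemokine that attracts T cells, gave 44.6, 53.7 and 52.8 against 33.5, 24.4 and 16.5, without overlap, a difference of 0.72 ± 0.18 (adjusted p = 0.0342). With the block and no filter 2 of the 6 passed, STING1 (adjusted p = 0.0344) and TNFSF10 (0.0212), against 1.29% of all genes as higher. IFNGR2 (0.0968), IRF2BP1 (0.112), SAMHD1 (0.0543) and CXCL10 (0.131) did not.

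**Figure D5:**
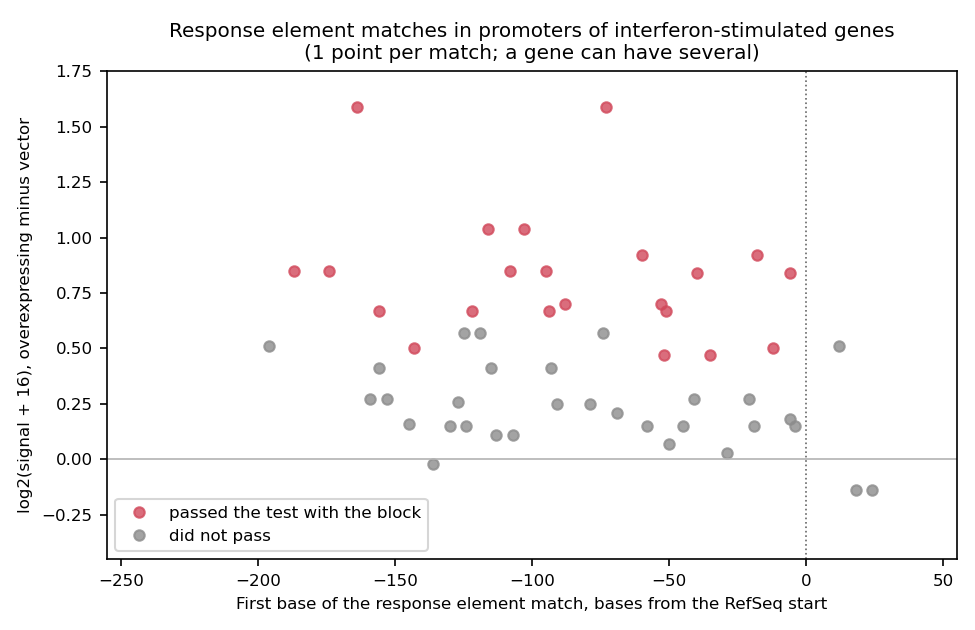
Position of each response element match in the promoters of members with a probe set (horizontal axis, bases from the RefSeq start) against the gene's difference of log2(signal + 16) (vertical axis); red points are genes that passed the test with the block. Red and grey points are spread over the same stretch before the start.

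Members with and without a response element had similar median differences. Members with a match had a median difference of 0.27 (27 genes) and those without of 0.25 (11 genes). Among members with a promoter, 9 of 11 called with the block held a match and 18 of 27 not called. OAS1 and HERC6 were the called members with a promoter and no match in these 300 bases. Outside the list, 586 genes on the array held a match, with a median difference of 0.01, against 0.00 for 14760 genes without one.

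Most markers of other cell types lay below the filter. Of 8 leukocyte markers with a probe set 3 lay above the filter (CD14, ITGAM and CSF1R), and the summed signal of the 8 was 71.2 to 136 on overexpressing and 79.8 to 113 on vector arrays. PTPRC, the defining leukocyte gene, was at 0.98 to 8.17. CD14 gave 14, 79.5 and 54.4 against 9.15, 38.3 and 22.3, with the replicate 2 array highest and the replicate 1 array lowest in either group, as for 17 members (adjusted p = 0.0502 with the block). Fibroblast markers summed to 155 to 159 and 126 to 163. COL1A1 (67.8 to 100.8), DCN (16.8 to 31.6) and THY1 (9.25 to 28.4) lay above the filter and the other 5, COL1A2 and COL3A1 among them, below it. Endothelial markers summed to 41.4 to 55.9 and 40.6 to 45.6, with PECAM1 (28.6 to 37.5) above the filter. No marker of these 3 cell types passed either fit. In bulk RNA, fewer cells that respond and less RNA per cell cannot be told apart.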

How the data were processed

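The deposited values are linear signal intensities of each probe set. The submitters' processing notes name MAS5 as the tool, with a version not given in the sources used. The authors had scaled each array to a trimmed mean of 99.99, which was kept. Of 54675 probe sets, 62 were controls, 41097 had 1 gene symbol in the platform annotation (41043 of them matched to GRCh38.p14 genes), 1801 had several and 11777 none. Signals were transformed as log2(signal + 16). The 27307 probe sets at or above the median level entered limma (version 3.58.1, under R 4.3.3), where lmFit held 1 term, the group, and eBayes moderated the variance along its intensity trend, and p-values were adjusted by Benjamini-Hochberg over 12151 genes, each by its probe set of highest mean signal. The fit was tested on simulated data. Precision is limited by having 3 arrays in each group.

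Replicate numbers come from the titles. Deviations from the group means of same-numbered arrays correlated with r = 0.64, 0.39 and 0.25 for numbers 1, 2 and 3, so the number was also used as a block. Differently numbered arrays 2 and 3 gave 0.32 and 0.20, so a shift shared by the replicate 1 arrays can give such values. The members, roles, pathway genes, motifs and tests were chosen with earlier results of these data known. All members are accounted for; signals on every array are given for members called in either fit or without overlap, and for sensors and transcription factors. Of the pathway genes, those called, with the receptors and kinases, are named. IFI16, IFNE, MX1, SAMD9 and CD14 are described further after their values were seen. Promoters are from RefSeq (GRCh38.p14).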

Additional observations from a re-analysis of the deposited data

How the results depend on the processing

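Without the block, the count of interferon-stimulated genes called higher was 0 under every pseudocount, filter, scaling and probe set choice tried and 0 to 1 without each array in turn (1, IFI44, without overexpressing replicate 1), and that called lower was 0 in every fit, block or not. With the replicate block 14 were called higher, with a batch factor of replicate 1 in its place 13, with the block and no trend 1, no filter 12, quantile normalization 15, array medians centred 16, a pseudocount of 1 13 or of 64 15, probe sets ending in _x_at and _s_at left out 8, and without 1 number 9 to 16. Of all genes, 4.35% were called higher with the block, 3.79% with the batch factor, and with the block 0.148% with no trend, 1.29% with no filter, 5.03% with quantile normalization, 3.65% with medians centred, 3.86% and 4.56% with pseudocounts of 1 and 64, 3.75% with those probe sets left out and 2.41% to 3.87% without 1 number. Adjusted over all probe sets, an alternative chosen after seeing the data, the block called 14. Pathway genes called, 0 without the block, were 6 with it, 4 with the batch factor, 0 with the block and no trend, 2 with no filter, 8 with quantile normalization, 6 with medians centred, with either pseudocount and with _x_at and _s_at left out, 3 to 8 without 1 number and 5 adjusted over probe sets. The median difference of the 46 members, 0.27, was 0.19 to 0.39 under other pseudocounts, scalings and probe set choices and 0.15 to 0.48 without 1 array. No member called with the block changed direction under any alternative run.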
